A study of Mus musculus with 9 samples.

Results

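The mouse genes Fgfr1, Fgfr2, Fgfr3 and Fgfr4 code for the receptors through which fibroblast growth factors (FGFs) signal, and their RNA was followed in embryonic sclerotome cells exposed to BMP4 or TGF-β1. All probe sets that the array's gene table assigns to 1 of these 4 symbols and to no other gene were taken, which gave 13 of the 45037 probe sets on the arrays and 4 of 18193 genes. Sclerotome, the compartment of the somite that makes vertebrae and intervertebral discs, was dissected from wild type mouse embryos (E11.5) after the notochord had been taken out, dissociated, and grown in micromass, a dense droplet of cells in which mesenchyme can turn to cartilage. Exposure lasted 8 hours, to BMP4 at 50 ng/ml, to TGF-β1 at 5 ng/ml or to no added factor, and RNA of 3 cultures per group was hybridised to 9 Affymetrix mouse arrays. All cultures shared the same serum-containing medium. The sources differ on when the factors were added, overnight after plating by the sample records and soon after plating by the protocol, and which holds for the arrays is not known. The cultures of a group are described as repeats of the experiment, and the p-values reflect how far these repeats varied.

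Each value is a log2 signal from which the probe set's own median over the 9 arrays had been removed in the deposited table. A value of 1 on an array therefore means 2-fold above that median. Differences between arrays are kept and the level of expression is not, so the receptors cannot be ranked by abundance, signal over background cannot be judged, and the tissue label cannot be checked against the levels of marker genes. In such bulk RNA, fewer cells of a type and less RNA per cell cannot be told apart.

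FGFs are secreted proteins that bind receptor tyrosine kinases together with heparan sulfate, which leads to receptor pairing, to activation of the MAP kinase and PI3 kinase routes, and to transcription of feedback inhibitors such as the Sprouty genes. In the developing skeleton Fgfr1 and Fgfr2 are known from mesenchyme and early condensations and Fgfr3 from chondrocytes, where its activity restrains growth of cartilage and activating human mutations cause achondroplasia. Fgfr4 is known from myogenic progenitors and, in the liver, as the receptor for Fgf15.

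Fgfr1 was measured by 3 probe sets (1424050_s_at, 1425911_a_at and 1436551_at), Fgfr2 by 3 (1420847_a_at, 1433489_s_at and 1443211_at), Fgfr3 by 2 (1421841_at and 1425796_a_at) and Fgfr4 by 5 (1418596_at, 1427776_a_at, 1427777_x_at, 1427845_at and 1427846_x_at). The suffix _x_at marks probe sets with probes that may bind other transcripts, so the 2 such sets of Fgfr4 are uncertain. Where 1 probe set stands for a gene it is the one with the largest variance over the 9 arrays: 1425911_a_at, 1433489_s_at, 1425796_a_at and 1427776_a_at for Fgfr1 to Fgfr4 in turn. The group labels were not used, but differences between the groups are part of this variance. The choice therefore favours sets with large group differences, here and for all genes. Promoter windows from 250 bases before to 50 bases after an annotated start were given by RefSeq (GRCm38.p6) for 3 of the 4 symbols, and Fgfr1 had no entry. They are shown for Fgfr3, Fgfr2 and Fgfr4, the genes with an entry. Letters are in capitals where any of 5 motifs, searched on both strands, was found. GGCGCC and the related GGAGCC are GC-rich elements known to bind BMP-activated SMADs. CAGAC is known to bind SMAD3 and SMAD4, ACAAT to bind SOX proteins, and GGGCGG to bind SP1.
Fgfr3 (chr5:33721474-33721773, + strand): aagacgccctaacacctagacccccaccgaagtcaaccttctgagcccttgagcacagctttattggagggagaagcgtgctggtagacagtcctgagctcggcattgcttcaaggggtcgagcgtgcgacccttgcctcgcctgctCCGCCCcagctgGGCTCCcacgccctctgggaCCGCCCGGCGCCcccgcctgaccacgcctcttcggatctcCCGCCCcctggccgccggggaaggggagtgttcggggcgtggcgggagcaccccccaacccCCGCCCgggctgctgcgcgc
Fgfr3, downstream start (chr5:33722056-33722355, + strand): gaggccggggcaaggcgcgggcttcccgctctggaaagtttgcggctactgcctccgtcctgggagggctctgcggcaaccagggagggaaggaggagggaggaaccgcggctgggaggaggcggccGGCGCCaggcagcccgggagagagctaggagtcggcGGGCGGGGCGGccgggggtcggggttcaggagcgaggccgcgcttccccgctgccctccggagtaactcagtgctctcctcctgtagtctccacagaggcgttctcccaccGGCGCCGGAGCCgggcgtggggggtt
Fgfr2 (chr7:130266759-130267058, - strand): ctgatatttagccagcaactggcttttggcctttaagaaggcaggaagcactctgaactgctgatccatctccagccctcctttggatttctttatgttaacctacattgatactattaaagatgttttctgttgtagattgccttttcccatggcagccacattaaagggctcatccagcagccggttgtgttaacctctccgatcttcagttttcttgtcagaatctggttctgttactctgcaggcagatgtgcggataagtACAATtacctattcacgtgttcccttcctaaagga
Fgfr4 (chr13:55152568-55152867, + strand): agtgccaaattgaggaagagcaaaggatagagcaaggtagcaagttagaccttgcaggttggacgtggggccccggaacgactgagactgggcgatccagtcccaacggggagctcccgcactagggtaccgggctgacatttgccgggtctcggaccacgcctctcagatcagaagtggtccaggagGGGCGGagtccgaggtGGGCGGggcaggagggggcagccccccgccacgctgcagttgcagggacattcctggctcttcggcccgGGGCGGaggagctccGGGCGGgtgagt

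GGCGCC was found 1 time in the upstream Fgfr3 window, starting 65 bases before the start site and directly next to a GGGCGG match on the other strand, and 2 times in the downstream Fgfr3 window. It occurs in 11.9% of 32851 RefSeq promoter windows of this length. GGAGCC was found 1 time in each Fgfr3 window (30.8% of all windows), in the downstream one directly next to GGCGCC. The SP1 motif GGGCGG was found 4 times in the upstream Fgfr3 window, 2 times, overlapping each other, in the downstream one and 4 times in the Fgfr4 window (35.7% of all windows). The Fgfr2 window held 1 ACAAT (31% of all windows) and no other match, and CAGAC was in none of the 4 windows (49.6% of all windows). GC content was 69.7% and 73.0% in the Fgfr3 windows, 43.7% in the Fgfr2 window and 65.3% in the Fgfr4 window. No match was shared by the windows of all 3 genes. A match describes letters and not a bound site.

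With BMP4, a factor that promotes cartilage in such cells, Fgfr3 and Fgfr2 rose, 5.03-fold and 2.05-fold, and Fgfr1 fell 1.34-fold. Fgfr1 was called at 1 of its 3 probe sets, and 1 of the 3 Fgfr2 sets was not called. Fgfr4 was higher by 1.63-fold at the probe set that stands for it without passing the test there. Differences were tested with limma over all 9 arrays, and a probe set was called when its p, adjusted by the Benjamini-Hochberg method over all 45037 probe sets, was under 0.05. With BMP4, 6 of the 13 receptor probe sets were called, 5 higher and 1 lower, against 5.44% of all probe sets (2.31% higher and 3.13% lower). By gene 3 of 4 were called, against 7.96% of all genes. The BMP4 and untreated arrays did not overlap at 9 of the 13 sets, and at 20.0% of all probe sets.

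**Figure D1:**
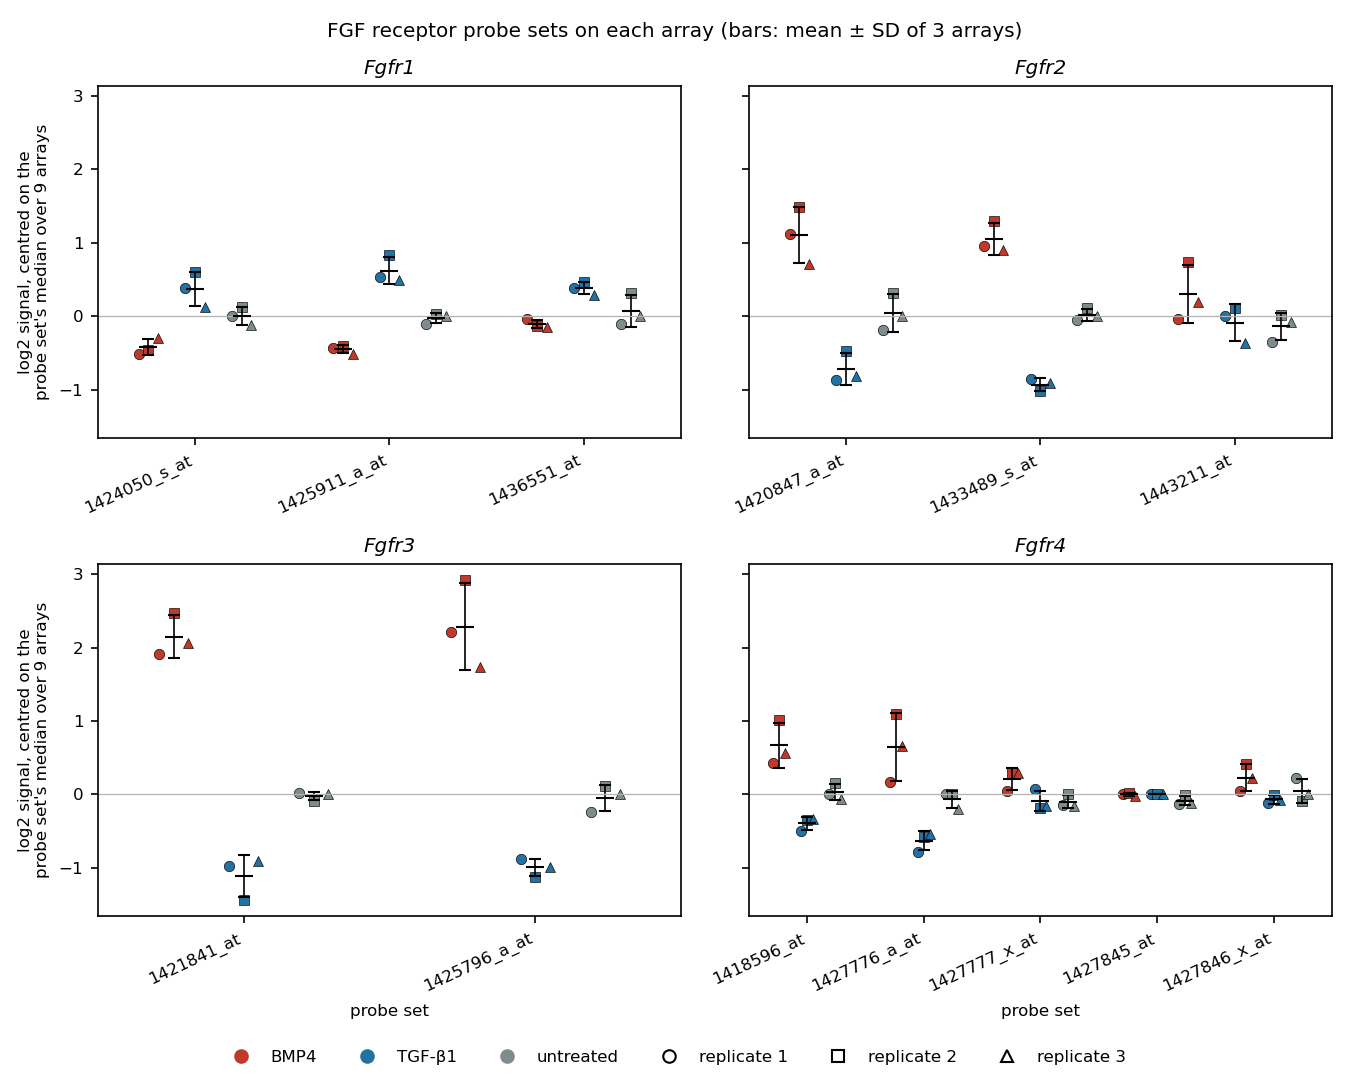
Log2 signal of each of the 13 probe sets (y axis, centred on the probe set's median over the 9 arrays), with 1 panel per receptor and the probe sets along the x axis. Each point is 1 array, coloured by group and shaped by replicate number, and bars give the mean ± SD of 3 arrays. BMP4 arrays lie highest and TGF-β1 arrays lowest for both Fgfr3 probe sets (BMP4 1.73 to 2.92, TGF-β1 -1.44 to -0.88), whereas for Fgfr1 1425911_a_at the TGF-β1 arrays lie highest (0.49 to 0.83).

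Fgfr3, the receptor of growth plate chondrocytes, had values of 2.21, 2.92 and 1.73 in the 3 BMP4 arrays and of -0.24, 0.11 and 0.00 in the 3 untreated arrays at 1425796_a_at. At 1421841_at the values were 1.91, 2.47 and 2.06 in BMP4 arrays and 0.02, -0.09 and 0.00 in untreated arrays. Every BMP4 array stood above every untreated array at both probe sets, and BMP4 replicate 2 was the highest array at both. The log2 differences were 2.33 ± 0.24 (SE, n = 3 per group, limma adjusted p = 0.000605) and 2.17 ± 0.16 (limma adjusted p = 0.000123). Among rises with BMP4 over all 18193 genes Fgfr3 held place 11. Both probe sets were called in each of the 9 fits that left out 1 array, with differences of 2.01 to 2.61 at 1425796_a_at.

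Fgfr2, known from early mesenchymal condensations, had 0.95, 1.30 and 0.91 in BMP4 arrays and -0.05, 0.11 and 0.00 in untreated arrays at 1433489_s_at. The 2 groups did not overlap, and BMP4 replicate 2 was again highest. The difference was 1.03 ± 0.11 (SE, n = 3 per group, limma adjusted p = 0.000689), place 143 among rises. At 1420847_a_at it was 1.06 ± 0.20 (limma adjusted p = 0.0121), and over the 9 fits without 1 array the adjusted p ranged from 0.0065 to 0.0501, past the threshold only without untreated replicate 1. The remaining set 1443211_at differed: its BMP4 values of -0.03, 0.74 and 0.20 overlapped its untreated values of -0.35, 0.01 and -0.08, and the difference of 0.44 ± 0.20 did not pass the test (limma adjusted p = 0.285). Over the 9 arrays this set followed the other 2 loosely (Pearson r 0.59 and 0.68), while those 2 correlated at 0.97.

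Fgfr4 had 0.17, 1.10 and 0.66 in BMP4 arrays and 0.00, 0.01 and -0.20 in untreated arrays at 1427776_a_at. The BMP4 arrays all stood above the untreated arrays, yet they spread widely (SD 0.46) and replicate 1 lay close to them. The difference of 0.71 ± 0.19 was not called (SE, n = 3 per group, limma adjusted p = 0.0632), but without BMP4 replicate 1 it was 0.94 (limma adjusted p = 0.0098). The second set 1418596_at, with 0.43, 1.02 and 0.57 in BMP4 arrays and 0.00, 0.16 and -0.06 in untreated arrays, was called with a difference of 0.64 ± 0.14 (limma adjusted p = 0.0263). These sets correlated at 0.99 over the 9 arrays. The call of 1418596_at was lost without untreated replicate 1 (limma adjusted p = 0.0836) or without untreated replicate 3 (0.0827). The other 3 Fgfr4 sets had differences of 0.09 to 0.31 and were not called, and 1427845_at hardly varied at all (SD 0.05 over the 9 arrays, with 4 arrays at exactly 0).

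Fgfr1, the receptor most widely used by mesenchyme, moved the other way. Its values at 1425911_a_at were -0.43, -0.41 and -0.51 in BMP4 arrays and -0.11, 0.02 and 0.00 in untreated arrays, without overlap. The difference of -0.42 ± 0.10 passed the test narrowly (SE, n = 3 per group, limma adjusted p = 0.0333). The call was lost without any 1 of the 3 BMP4 arrays or of the 3 untreated arrays, with differences of -0.46 to -0.39 and limma adjusted p of 0.060 to 0.097. At 1424050_s_at the difference was -0.42 ± 0.12 (limma adjusted p = 0.0822) and at 1436551_at it was -0.17 ± 0.11 (limma adjusted p = 0.495), so 1 of 3 sets carried the call although all 3 differences were below 0.

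**Figure D2:**
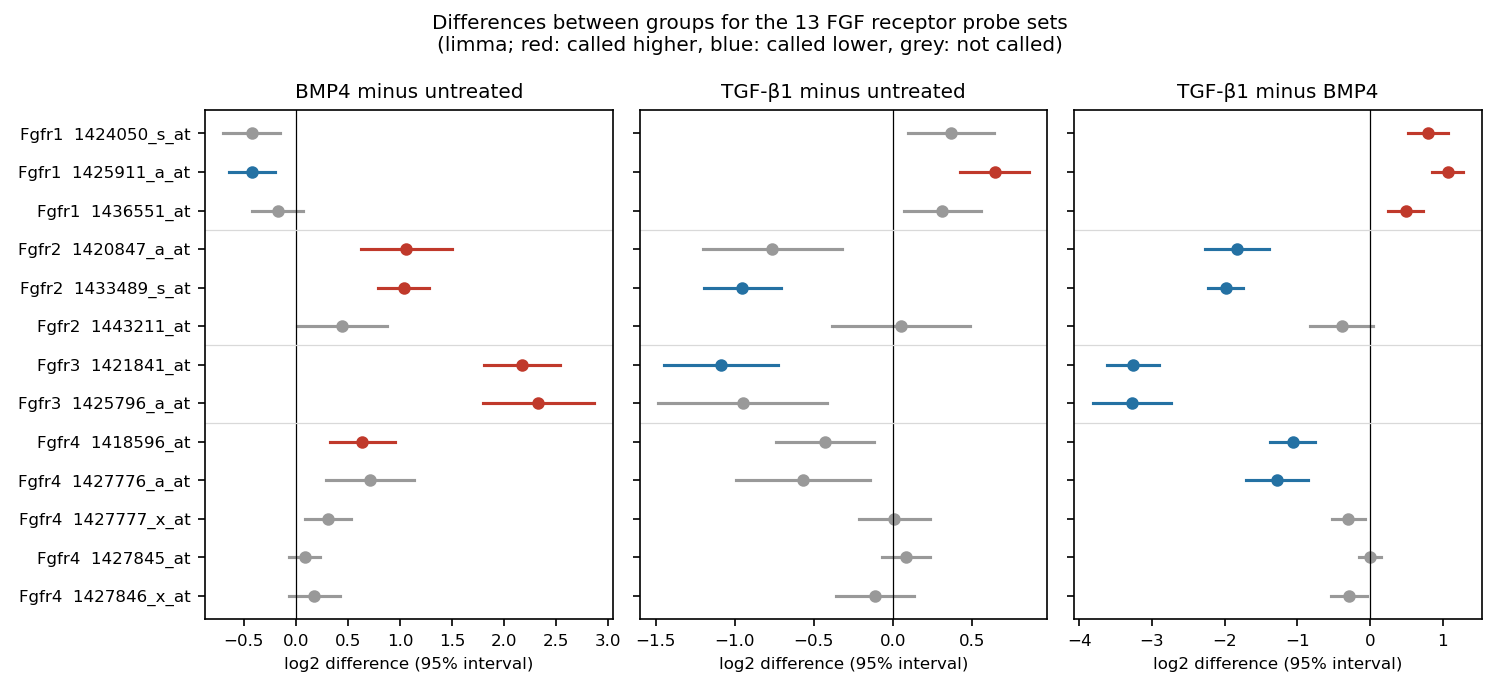
Log2 difference (x axis, with 95% interval from limma) of the 13 receptor probe sets (y axis) in the 3 comparisons, with sets called higher in red, called lower in blue and not called in grey. Calls number 6, 3 and 9 of 13 from left to right, and Fgfr3 has the widest span, from 2.33 with BMP4 over untreated to -3.28 with TGF-β1 over BMP4.

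With TGF-β1 over untreated cultures, Fgfr1 rose 1.56-fold and Fgfr2 fell 1.94-fold, each called at 1 of its 3 probe sets. Fgfr3 was called at 1 of its 2 probe sets, 1421841_at (2.13-fold lower). At the set that stands for it, Fgfr3 was 1.93-fold lower and not called. No Fgfr4 set was called. In all, 3 of 13 receptor probe sets were called, 1 higher and 2 lower, against 4.43% of all probe sets (1.83% higher and 2.60% lower), and 2 of 4 genes, against 6.75%. The TGF-β1 and untreated arrays did not overlap at 9 of the 13 sets, and at 21.8% of all probe sets. The untreated arrays are the same as in the comparison with BMP4, so the 2 sets of differences are not independent of each other. Deviations from the group means correlated at 0.14 to 0.49 between arrays with the same number and at -0.40 to 0.20 between the others. A fit blocked on replicate number called 6 of the 13 sets, 1 higher and 5 lower, and 8.95% of all probe sets.

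Fgfr1 had 0.53, 0.83 and 0.49 in TGF-β1 arrays at 1425911_a_at, against -0.11, 0.02 and 0.00 in untreated arrays. All TGF-β1 arrays were higher, by 0.64 ± 0.10 on the log2 scale (SE, n = 3 per group, limma adjusted p = 0.00647), and the call was kept in each fit with 1 array left out. The differences of 0.37 ± 0.12 at 1424050_s_at and 0.31 ± 0.11 at 1436551_at had the same sign and were not called (limma adjusted p = 0.134 and 0.154), apart from the fit without untreated replicate 2 for 1436551_at (0.0392). The 3 Fgfr1 sets correlated at 0.88 to 0.94 over the 9 arrays.

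Fgfr2 had -0.86, -1.03 and -0.91 in TGF-β1 arrays at 1433489_s_at and -0.05, 0.11 and 0.00 in untreated arrays. All TGF-β1 arrays were far below the untreated ones and close to each other (SD 0.08). The difference was -0.95 ± 0.11 (SE, n = 3 per group, limma adjusted p = 0.00147), and it was called in all 9 fits with 1 array left out. At 1420847_a_at the values were -0.87, -0.47 and -0.82 in TGF-β1 arrays and -0.19, 0.32 and 0.00 in untreated arrays, a difference of -0.76 ± 0.20 that was not called (limma adjusted p = 0.0605) but was with the replicate block (limma adjusted p = 0.00548) and without BMP4 replicate 2 (0.0387) or BMP4 replicate 3 (0.0388). At 1443211_at the groups overlapped, with a difference of 0.05 ± 0.20.

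Fgfr3 had -0.98, -1.44 and -0.91 in TGF-β1 arrays at 1421841_at, against 0.02, -0.09 and 0.00 in untreated arrays. At 1425796_a_at the values were -0.88, -1.12 and -0.99 with TGF-β1 and -0.24, 0.11 and 0.00 without. No TGF-β1 array reached an untreated one at either set. The differences were alike, -1.09 ± 0.16 (SE, n = 3 per group, limma adjusted p = 0.00622) and -0.95 ± 0.24 (limma adjusted p = 0.0558), yet only the first passed the test. At the second set the BMP4 arrays, which share the fit, had a spread of 0.60 (SD), and its limma adjusted p was 0.0082 without BMP4 replicate 2 and 0.0223 without BMP4 replicate 3. With the replicate block it was called too (limma adjusted p = 0.0320).

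Fgfr4 was lower with TGF-β1 at 1427776_a_at, with -0.78, -0.58 and -0.54 in TGF-β1 arrays and 0.00, 0.01 and -0.20 in untreated arrays. The groups did not overlap. The difference of -0.57 ± 0.19 was not called (SE, n = 3 per group, limma adjusted p = 0.137), but was in the fit without BMP4 replicate 1 (limma adjusted p = 0.0481) and in a fit of the TGF-β1 and untreated arrays alone (0.0321). At 1418596_at the difference was -0.43 ± 0.14 (limma adjusted p = 0.126, and 0.0375 with the replicate block and 0.0367 without BMP4 replicate 2). The other 3 sets differed by -0.11 to 0.08.

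Set directly against BMP4, TGF-β1 cultures had lower Fgfr3, Fgfr2 and Fgfr4 and higher Fgfr1, and all 4 genes were called (10.1% of all genes were). Of the 13 probe sets 9 were called, 3 higher and 6 lower, against 6.91% of all probe sets (3.41% higher and 3.49% lower). The TGF-β1 and BMP4 arrays did not overlap at 10 of the 13 sets, and at 25.5% of all probe sets. Fgfr3 was 9.72-fold lower with TGF-β1 (-3.28 ± 0.24, SE, n = 3 per group, limma adjusted p = 5.94e-05) and 9.59-fold lower at its other set. This was place 3 among the falls of all 18193 genes. Fgfr2 was 3.97-fold lower (-1.99 ± 0.11, limma adjusted p = 1.25e-05), place 28 in that direction, and Fgfr4 was 2.43-fold lower (-1.28 ± 0.19, limma adjusted p = 0.00307), place 121. Fgfr1 was 2.09-fold higher (1.07 ± 0.10, limma adjusted p = 0.000193), place 172 among rises, and here all 3 of its sets were called, although the call of 1436551_at (0.49 ± 0.11, limma adjusted p = 0.0251) was lost without any 1 of the 3 TGF-β1 or of the 3 BMP4 arrays (0.0503 to 0.0904). All 4 genes were called in each of the 9 fits with 1 array left out, and with the replicate block. The sets that were not called were Fgfr2 1443211_at, with 0.00, 0.11 and -0.37 in TGF-β1 arrays and -0.03, 0.74 and 0.20 in BMP4 arrays, and the Fgfr4 sets 1427777_x_at, 1427845_at and 1427846_x_at, with differences of -0.30 to 0.00.

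**Figure D3:**
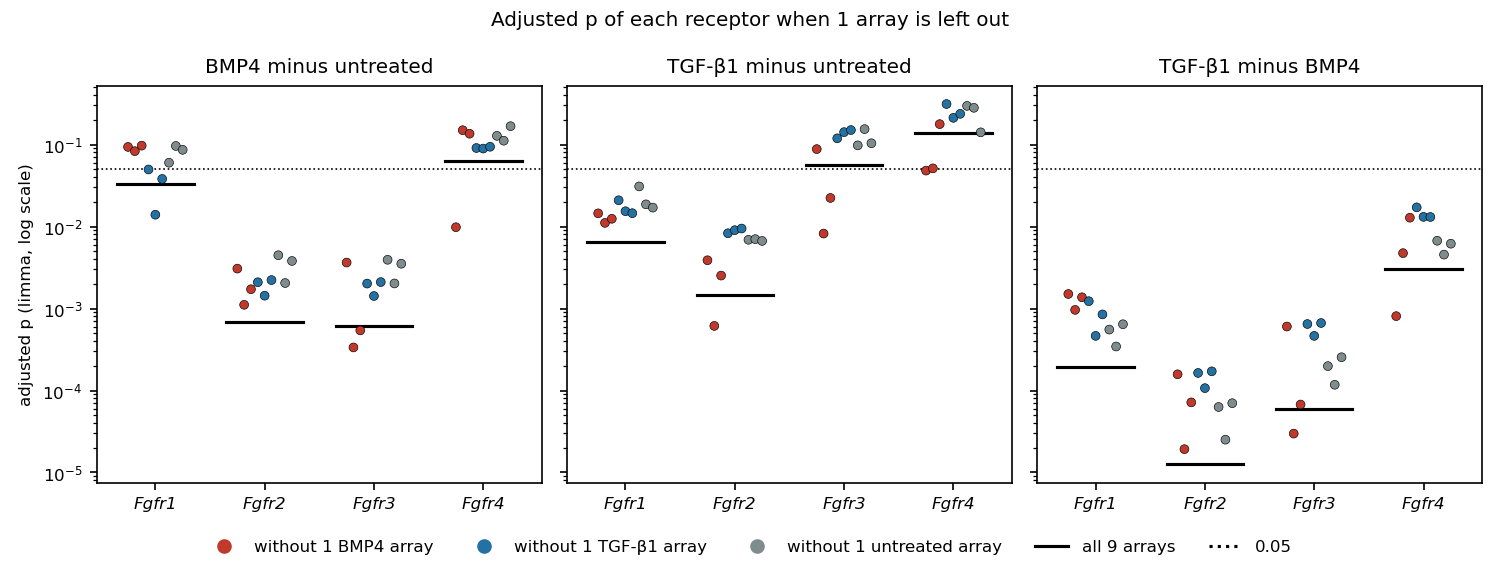
Adjusted p from limma (y axis, log scale) of the probe set standing for each receptor (x axis) in the 3 comparisons. Each point is a fit without 1 array, coloured by the group of that array, the bar is the fit of all 9 arrays and the dotted line marks 0.05. All points for Fgfr2 and Fgfr3 with BMP4 and for all 4 receptors with TGF-β1 over BMP4 lie below the line, whereas 6 of 9 points for Fgfr1 with BMP4 lie above it.

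The group means of the set that stands for each gene ran in the order BMP4, untreated, TGF-β1 for Fgfr2 (1.05 ± 0.22 with BMP4, -0.93 ± 0.08 with TGF-β1 and 0.02 ± 0.08 untreated, SD, n = 3 each), for Fgfr3 (2.29 ± 0.60, -1.0 ± 0.12 and -0.04 ± 0.18 in the same groups) and for Fgfr4 (0.64 ± 0.46, -0.63 ± 0.13 and -0.06 ± 0.12). They ran the other way for Fgfr1 (-0.45 ± 0.06, 0.62 ± 0.18 and -0.03 ± 0.07). The difference between neighbours in these orders was not called for Fgfr4 against untreated with either factor and for Fgfr3 with TGF-β1 against untreated. Across the 9 arrays Fgfr2 and Fgfr3 correlated at 0.97, Fgfr2 and Fgfr4 at 0.94 and Fgfr3 and Fgfr4 at 0.92, whereas Fgfr1 correlated with Fgfr2, Fgfr3 and Fgfr4 at -0.96, -0.89 and -0.87. These are descriptions over arrays that share their groups.

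Whether the receptors responded to different extents was asked by taking the difference between a pair of receptors on each array and comparing it between groups with the two-sided exact permutation test, which with 3 arrays per group cannot give a p below 0.1. Of the 18 such comparisons 16 reached this smallest value, which means only that the arrays of the groups compared did not overlap. With this limit, p adjusted over all 18 could not pass 0.05. The 18 comparisons share receptors and arrays, so the 16 are not separate results. Single probe sets did not overlap at 20.0% to 25.5% of all probe sets, depending on the comparison. The share among pairs of other genes was not tested. With BMP4 over untreated, Fgfr3 gained 1.30 ± 0.24 (SE) log2 units on Fgfr2, 2.75 ± 0.32 on Fgfr1, and the difference Fgfr4 minus Fgfr3 was -1.62 ± 0.32. With TGF-β1 over untreated, the difference Fgfr3 minus Fgfr2 was 0.00 ± 0.07 at these sets (exact permutation p = 1), but the mean of all sets of each gene gave -0.46 ± 0.19 for the same pair, Fgfr3 lower. The other pair above the smallest value was Fgfr4 minus Fgfr3 with TGF-β1 (0.38 ± 0.19, exact permutation p = 0.2).

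The counts of listed genes below stand against 7.96% of all genes called with BMP4, 6.75% with TGF-β1 and 10.1% between TGF-β1 and BMP4. The ligands came from a list of 18 FGF genes, all measured. With BMP4, 1 rose and 3 fell (median log2 difference -0.02, against 0.00 over all genes), and with TGF-β1, 4 rose and 0 fell (median 0.17, against 0.01). Fgf18, a ligand for which Fgfr3 is a known receptor in cartilage, had -2.73, -2.49 and -2.63 in BMP4 arrays, 2.01, 2.54 and 2.13 in TGF-β1 arrays and 0.00, 0.38 and -0.12 in untreated arrays. The 3 groups were wide apart, in the order opposite to that of Fgfr3. Fgf18 was 6.52-fold lower with BMP4 (-2.70 ± 0.16, SE, n = 3 per group, limma adjusted p = 4.66e-05) and 4.41-fold higher with TGF-β1 (2.14 ± 0.16, limma adjusted p = 0.00017), which made it 28.7-fold higher in TGF-β1 than in BMP4 cultures.

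Fgf21, known as an endocrine factor of liver, had 1.69, 1.74 and 1.45 in TGF-β1 arrays and -0.32, -0.52 and -0.24 in untreated arrays and rose 3.97-fold (1.99 ± 0.12, limma adjusted p = 4.93e-05). Fgf2 (0.50 ± 0.11, limma adjusted p = 0.0319) and Fgf8 (0.48 ± 0.10, limma adjusted p = 0.0302) rose less with TGF-β1, and the call of Fgf2 was lost in 5 of 9 fits with 1 array left out (without untreated replicates 1 or 3, BMP4 replicate 1, or TGF-β1 replicates 2 or 3; limma adjusted p up to 0.107). With BMP4, Fgf5 fell (-0.99 ± 0.13, limma adjusted p = 0.00195), Fgf9 fell (-0.49 ± 0.10, limma adjusted p = 0.0225) and Fgf15, the mouse ligand of Fgfr4 in the gut and liver axis, rose (0.79 ± 0.14, limma adjusted p = 0.00896). Fits with arrays left out are not given for Fgf8 and Fgf9. Between TGF-β1 and BMP4 4 ligands were called, all higher with TGF-β1, and 7 with the replicate block, 6 higher and 1 lower.

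**Figure D4:**
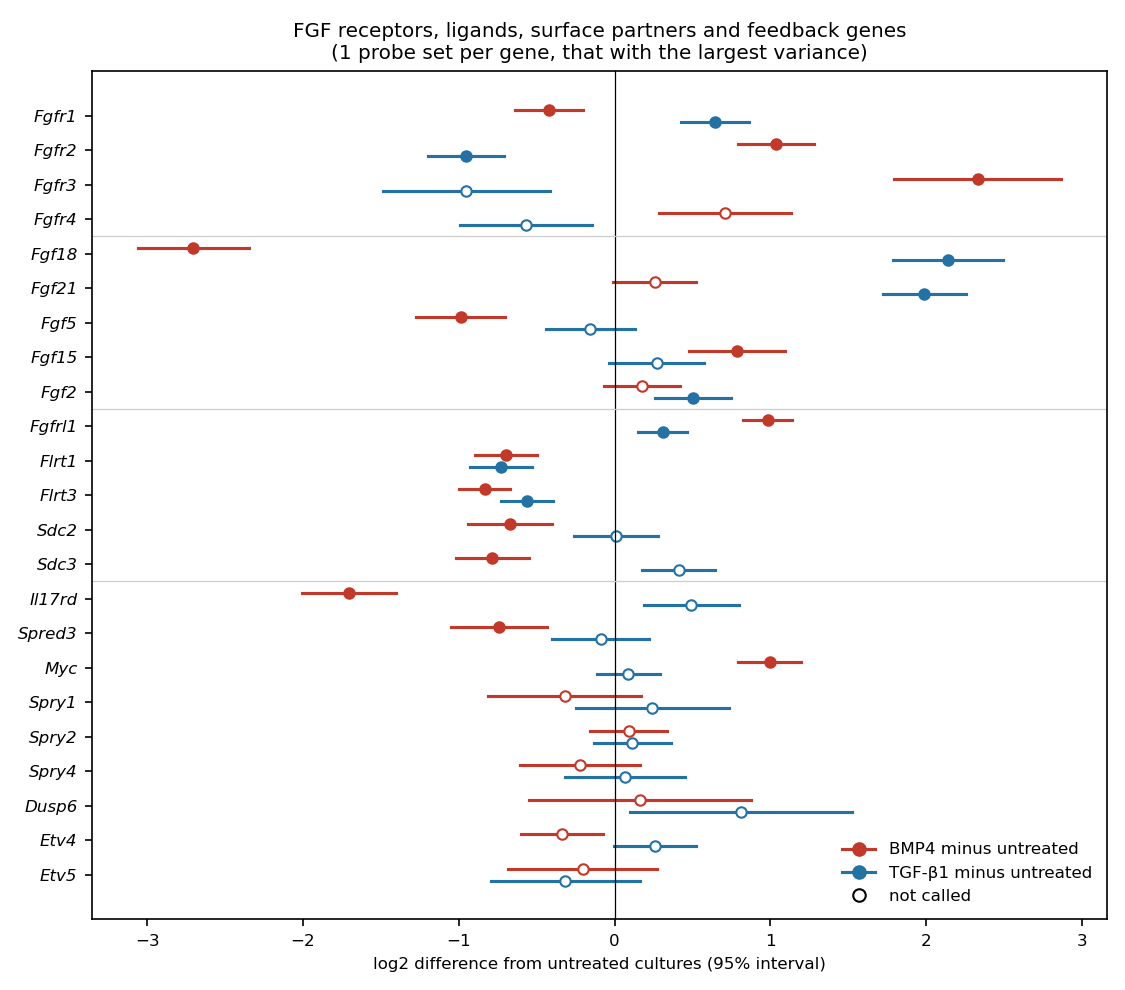
Log2 difference from untreated cultures (x axis, with 95% interval from limma) for the 4 receptors, 5 ligands, 5 surface partners and 9 feedback or output genes (y axis), with BMP4 in red above TGF-β1 in blue and open points for differences that were not called. Fgf18 lies at -2.70 with BMP4 and at 2.14 with TGF-β1, on the sides opposite to Fgfr3.

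At the cell surface 20 partners of the receptors were measured. With BMP4, 1 rose and 4 fell (median -0.11), with TGF-β1, 1 rose and 3 fell (median 0.02), and between TGF-β1 and BMP4 2 were higher and 2 lower (5 and 3 with the replicate block). Fgfrl1, a receptor of this family without a kinase domain, had 0.65, 0.74 and 0.61 in BMP4 arrays, 0.00, 0.03 and -0.05 in TGF-β1 arrays and -0.29, -0.36 and -0.31 in untreated arrays. Unlike each of Fgfr1 to Fgfr4, it stood above the untreated arrays with both factors. The rise with BMP4 was 1.98-fold (0.98 ± 0.07, limma adjusted p = 0.000107). That with TGF-β1 was small (0.31 ± 0.07, limma adjusted p = 0.0373) and was kept only in the fit without BMP4 replicate 2 among the 9 with 1 array left out (limma adjusted p up to 0.109 in the others).

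Flrt1 and Flrt3, membrane proteins known to bind FGF receptors, fell with both factors. Flrt3 was lower by -0.83 ± 0.07 with BMP4 (limma adjusted p = 0.000245) and by -0.56 ± 0.07 with TGF-β1 (limma adjusted p = 0.00303), and Flrt1 by -0.70 ± 0.09 and -0.73 ± 0.09. The heparan sulfate proteoglycan genes Sdc3 (-0.78 ± 0.10, limma adjusted p = 0.00225) and Sdc2 (-0.67 ± 0.12, limma adjusted p = 0.0104) fell with BMP4. Sdc3 was 2.29-fold higher with TGF-β1 than with BMP4 (limma adjusted p = 0.000147). Of 20 heparan sulfate enzymes 2 were called with BMP4, a share near that of all genes. Here Sulf1, which trims sulfate groups from the chains, fell (-0.87 ± 0.15, limma adjusted p = 0.0085) and Hpse, the heparanase, rose (0.54 ± 0.13, limma adjusted p = 0.0358, lost in 8 of 9 fits with 1 array left out, untreated replicate 2 excepted). With TGF-β1 2 were called as well: Hs3st3b1, a sulfotransferase, rose (0.80 ± 0.12, limma adjusted p = 0.00576), and Sulf1 was lower (-0.63 ± 0.15, limma adjusted p = 0.0452), a call lost in 8 of 9 such fits, BMP4 replicate 2 excepted.

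Inside the cell, 1 of 22 measured adaptors and effectors rose with BMP4 (Pik3ca, a catalytic subunit of PI3 kinase, 0.69 ± 0.13, limma adjusted p = 0.0136, and 0.0596 without BMP4 replicate 2) and 0 of 22 were called with TGF-β1 (limma, with 4 at an unadjusted p under 0.05, and 1 called with the replicate block). Of 10 splicing factors that act on receptor isoforms, Mbnl1 rose with BMP4 (0.76 ± 0.11, limma adjusted p = 0.00282), and Esrp1 and Esrp2, which favour the epithelial forms of Fgfr2, differed from untreated by 0.01 to 0.17 and were not called. Feedback and output genes were mostly below the threshold. Of 17 measured, 1 rose and 2 fell with BMP4 (limma, with 6 at an unadjusted p under 0.05). With TGF-β1, 0 were called (limma, with 2 at an unadjusted p under 0.05, and 2 called, both higher, with the replicate block).

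Il17rd, which codes for Sef, an inhibitor of FGF signalling at the membrane, had -1.53, -1.99 and -1.62 in BMP4 arrays and 0.00, 0.20 and -0.22 in untreated arrays. It fell 3.26-fold with BMP4 (-1.71 ± 0.14, limma adjusted p = 0.000149), and was 4.59-fold higher in TGF-β1 than in BMP4 cultures. Spred3, another inhibitor, fell with BMP4 (-0.74 ± 0.14, limma adjusted p = 0.0122) and Myc rose 2.00-fold (limma adjusted p = 0.000298). The Sprouty genes Spry1, Spry2 and Spry4 differed from untreated by -0.32, 0.09 and -0.22 with BMP4 and by 0.24, 0.11 and 0.07 with TGF-β1, and none was called. The ETS factor Etv5 differed by -0.20 and -0.32 and Etv4 by -0.34 and 0.26, likewise without a call against untreated, but Etv4 was higher with TGF-β1 than with BMP4 (0.60 ± 0.12, limma adjusted p = 0.0132, and 0.0574 without TGF-β1 replicate 3). The MAP kinase phosphatase gene Dusp6 had 0.84, 0.00 and 0.61 in TGF-β1 arrays and -0.15, -0.59 and -0.25 in untreated arrays, with the array numbered 2 lowest in each group. Its difference of 0.81 ± 0.32 was not called (limma adjusted p = 0.208) but was with the replicate block (limma adjusted p = 0.0135). Between TGF-β1 and BMP4, 5 feedback genes were called, 3 higher and 2 lower, and 11 with the block, 9 higher and 2 lower.

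Other receptor tyrosine kinases of mesenchyme were counted for comparison. Of 27 measured, 2 rose and 7 fell with BMP4 (median -0.17) and 0 rose and 1 fell with TGF-β1 (median -0.02, and 2 and 5 with the replicate block). Kit, the receptor for stem cell factor, rose with BMP4 (0.97 ± 0.08, limma adjusted p = 0.000231) and fell with TGF-β1 (-0.52 ± 0.08, limma adjusted p = 0.00921), a call lost without the 3 arrays numbered 2 (-0.45, 0.0922). Egfr (-1.54 ± 0.17, limma adjusted p = 0.000818) and Pdgfrb (-1.04 ± 0.21, limma adjusted p = 0.0196, lost without untreated replicate 1 or 2 at 0.0723 and 0.0618) fell with BMP4.

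The genes most like each receptor were found by Pearson correlation over the 9 arrays among the 9096 genes whose SD reached the median, and the groups shared by all genes enter these values. For Fgfr3 they were Cd200 and Slc26a7 (r = 0.99 each), Gclc, Fabp7 and Cnr1. Cd200 also headed the list of Fgfr2 (r = 0.99), followed by 1810058I24Rik, Asrgl1, Slc26a7 and Stard8. For Fgfr4 they were 1810058I24Rik (r = 0.97), Elf1, Nbea, Col23a1 and Fgd6, and for Fgfr1 Bhlhe40 (r = 0.98), St8sia1, Cracdl, Pcp4 and Nfic.

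Other measures moved with the groups and are given beside the receptors, and their part in the receptor results was not tested. Of 21 cartilage genes 6 rose with BMP4, among them Sox9 (1.75 ± 0.23, limma adjusted p = 0.00206), Sox5 (1.23 ± 0.17), Sox6 (1.12 ± 0.25, lost without untreated replicate 1 or 3 or TGF-β1 replicate 1) and Acan (1.89 ± 0.23). The mean of this list was 0.50, 1.40 and 0.43 in BMP4 arrays, -0.33, 0.26 and -0.46 in TGF-β1 arrays and -0.37, 0.29 and -0.44 in untreated arrays. The array numbered 2 was thus highest in each group, as BMP4 replicate 2 was for Fgfr2, Fgfr3 and Fgfr4. Among TGF-β1 arrays, however, replicate 2 was lowest for Fgfr3 (-1.12) and Fgfr2 (-1.03) at the sets that stand for them. Among untreated arrays replicate 2 was highest at these sets and at that of Fgfr4, but lowest at Fgfr3 1421841_at (-0.09). With TGF-β1 1 cartilage gene was called, Chad, which rose (2.64 ± 0.39, limma adjusted p = 0.00589), and 9 with the replicate block, 5 higher and 4 lower. Without the 3 arrays numbered 2, an alternative chosen after seeing the data, Fgfr3 rose by 2.09 with BMP4 and was lower by -2.90 with TGF-β1 than with BMP4, both called. The calls of Fgf2 and Fgfrl1 with TGF-β1, of Hpse, Spred3 and Pdgfrb with BMP4 and of Etv4 with TGF-β1 over BMP4 were lost in that fit (limma adjusted p of 0.0577 to 0.207), and Dusp6 was called with TGF-β1 (0.92, 0.0113). Of the 18 FGF ligands, 2 were called higher with TGF-β1 in that fit and 2 lower with BMP4, against 4 and 3 with all 9 arrays.

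Among sclerotome markers 0 of 9 rose and 5 fell with BMP4 (list means of -0.48 to -0.44 in BMP4 arrays and 0.01 to 0.49 in untreated arrays), and 0 were called with TGF-β1 (3 at an unadjusted limma p under 0.05, and 1 called, lower, with the replicate block). Of 12 skeletal muscle markers Myf5, a gene of muscle progenitors, rose with BMP4 (0.83 ± 0.11, limma adjusted p = 0.00206) and Tnnt2 fell, whereas Myod1 and Myog differed by -0.13 and -0.16 and were not called. Of 12 neuron markers Sox2 rose (1.44 ± 0.20, limma adjusted p = 0.00287) and Nefl fell with BMP4. Of 8 notochord and epithelium markers 1 fell. Neural crest (5 measured), endothelium (8), erythroid (7) and macrophage (8) markers had 0 calls with BMP4, with 0, 1, 5 and 0 at an unadjusted limma p under 0.05, and with TGF-β1 the calls in these 7 other lists were 1 neuron and 1 macrophage marker, both lower. With the replicate block, 5 of the 12 muscle markers were called lower with TGF-β1, and all 12 differences were below 0 (median -0.25, from -0.43 to -0.04). The list mean of muscle markers was -0.17 to -0.04 in TGF-β1 arrays and 0.05 to 0.15 in untreated arrays, without overlap, as for Fgfr4 1427776_a_at. In BMP4 arrays this list mean was -0.07 to 0.02, also below every untreated array. Fgfr4 1427776_a_at instead stood above every untreated array with BMP4. The block also called 3 neuron markers, 1 higher and 2 lower, and 2 macrophage and 1 neural crest marker, all lower. Erythroid markers had a median difference of -0.73 with BMP4 and -0.61 with TGF-β1, and their list means were -0.31 to 0.06 in BMP4 arrays, -0.39 to 0.05 in TGF-β1 arrays and -0.15 to 0.91 in untreated arrays. Without the 3 arrays numbered 2, 3 of the 7 erythroid markers were called lower with BMP4 and 5 with TGF-β1.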

How the data were processed

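RNA of 9 micromass cultures (50 ng each, amplified before biotin labelling) was measured on Affymetrix mouse arrays. The authors deposited log2 signals obtained with RMA (version not given in the sources used here) in the software used by the study. All 45101 probe sets had a median of 0 over the 9 arrays (tolerance 1e-06), so each had been centred; values ran from -3.83 to 4.01. The 64 control probe sets were left out, which left 45037. No filter on low signal was possible, and 3 arrays per group limit the precision. Of these sets, 34945 carried 1 gene symbol, 932 several and 9160 none; the number of identical array pairs was 0.

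Groups were fitted with limma 3.58.1 in R 4.3.3 (lmFit and eBayes, 9 arrays, 3 comparisons, two-sided p, Benjamini-Hochberg adjustment over 45037 probe sets). The script was tested on simulated data. Named genes were the receptors, up to 3 called genes of the largest difference from each pathway list and comparison, 5 genes most correlated with each receptor, and 12 genes named regardless of result (Fgf18, Spry1, Spry2, Spry4, Dusp6, Etv4, Etv5, Fgfrl1, Sox9, Sox5, Sox6 and Acan). The other named genes (Fgf8, Fgf9, Flrt1, Sdc2 and Esrp genes and the markers among them) were chosen after their values were seen. The members and lists were chosen with earlier results of these data known. Same-numbered arrays correlated at 0.14, 0.49 and 0.28 between TGF-β1 and untreated and at 0.29, 0.50 and 0.38 between TGF-β1 and BMP4. Arrays of unlike number correlated at -0.40 to 0.20 and at -0.35 to 0.003 in these comparisons. The numbers were therefore treated as pairing these arrays, although the ranges overlap in the first. Between BMP4 and untreated 1 pair had -0.05. Numbers that mark common repeats would pair these 2 groups too, so the pairing is not settled. Alternatives were a replicate block, fits of 2 groups, the study's unequal-variance test, robust and weighted fits, rescaled arrays, a variability filter, the mean over a gene's probe sets, and leaving out each array. Python 3.11.15 and matplotlib 3.10.9 drew the figures.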

Additional observations from a re-analysis of the deposited data

How the results depend on the processing

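Signs and calls of Fgfr2 and Fgfr3 with BMP4, of Fgfr1 and Fgfr2 with TGF-β1, and of all 4 receptors with TGF-β1 over BMP4 were kept under every alternative apart from the methods' test with unequal variances. After adjustment that test called 0, 0 and 0 of the 13 receptor probe sets and 0, 0 and 11 of all probe sets with BMP4, with TGF-β1 and with TGF-β1 over BMP4 (limma called 6, 3 and 9 receptor sets). At an unadjusted p under 0.05 it had 7, 7 and 9 receptor sets (4644, 4996 and 6191 of all 45037 probe sets), and with at least a 2-fold change as well, the threshold of the methods, 4, 1 and 7 (433, 253 and 543 of all). The differences below had an adjusted p under 0.05 only in limma. With BMP4 they were -0.42 (Fgfr1), 1.03 (Fgfr2) and 2.33 (Fgfr3), and with TGF-β1 0.64 (Fgfr1) and -0.95 (Fgfr2). With TGF-β1 over BMP4 they were 1.07, -1.99, -3.28 and -1.28 (Fgfr1 to Fgfr4).

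Paired arrays: with the replicate block, Fgfr4 with BMP4 was called (0.71, limma adjusted p = 0.0269), as was Fgfr3 with TGF-β1 (-0.95, 0.0320), and 6 receptor sets were called with TGF-β1. No other receptor gene's call changed under the block. Same-numbered BMP4 and untreated arrays correlated at -0.05, 0.50 and 0.24, so these values do not settle whether the numbers pair them. Blocking raised the calls with BMP4 to 9.03% of all probe sets, to 15 of 21 cartilage genes (all higher), 7 of 17 feedback genes (3 higher), 8 of 20 surface partners (2 higher) and 5 of 20 heparan sulfate enzymes (3 higher). A fit of only the 2 groups compared called 5 sets with TGF-β1, Fgfr3 (-0.95, limma adjusted p = 0.00779) and Fgfr4 (-0.57, 0.0321) included. With only the more variable probe sets 5 were called with TGF-β1, Fgfr3 among them (-0.95, 0.0198), Fgfr4 was called with BMP4 (0.71, 0.0264) and Fgfr1 was not (-0.42, 0.0508). Equal array spread lost Fgfr1 with BMP4 (-0.47, 0.0517) and gained Fgfr3 with TGF-β1 (-0.95, 0.0282). The mean of a gene's probe sets gained Fgfr4 with BMP4 (0.38, 0.0353) and Fgfr3 with TGF-β1 (-1.02, 0.0083). Without the 3 arrays numbered 2, chosen after seeing the data, Fgfr1 with BMP4 was lost (-0.42, 0.0796). That fit also lost Fgfr4 1418596_at with BMP4 (0.53, limma adjusted p = 0.0523) and Fgfr1 1436551_at with TGF-β1 over BMP4 (0.43, 0.0666). In the fit of only the 2 groups compared, Fgfr4 1418596_at with BMP4 was lost too (0.64, 0.0761). The cause of these changes was not tested. Fewer probe sets were tested under the filter, and the smaller fits held fewer arrays.

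Leaving out 1 array gave 3 to 6 receptor sets called with BMP4 (3 without untreated replicate 1), 3 to 6 with TGF-β1 (6 without BMP4 replicate 2 and 5 without BMP4 replicate 3) and 8 to 9 with TGF-β1 over BMP4. Differences ran from -0.46 to -0.39 for Fgfr1 and from 0.48 to 0.94 for Fgfr4 with BMP4, and from -1.05 to -0.87 for Fgfr3 and -0.64 to -0.50 for Fgfr4 with TGF-β1. Sign changed only for differences near 0 that were not called: Fgfr2 1443211_at (-0.052 to 0.19) and Fgfr4 1427777_x_at (-0.070 to 0.058) with TGF-β1, turned at -0.052, -0.045, -0.012, -0.018 and -0.070, and Fgfr4 1427845_at (-0.0098 to 0.0078) with TGF-β1 over BMP4, at 0.0078 without BMP4 replicate 2 and also without the 3 arrays numbered 2. Fgfr3 minus Fgfr2 with TGF-β1 turned to -0.46 with the mean of the probe sets.

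Lost signal levels limit all statements to differences, and signal over background cannot be given.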
